A study of Branchiostoma belcheri with 3 samples.

Results

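The miR-34 and miR-449 microRNAs were examined in 3 organs of the amphioxus Branchiostoma belcheri, a small marine invertebrate chordate. A microRNA (miRNA) is a short RNA that guides repression of messenger RNAs, which it recognises mainly through its seed, bases 2 to 8. In vertebrates miR-34 and miR-449 share 1 seed, though in miR-34b of zebrafish and Xenopus it stands 1 base later. In mouse, Xenopus and zebrafish they promote the formation of motile cilia, in part by repressing the centriole protein CP110, and in mammals miR-34 is also a target of the tumour suppressor p53. The gill bars of amphioxus carry ciliated cells that drive the feeding current, and its gut is lined by ciliated epithelium as well.

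The array was searched for every miRNA probe, of any species, named miR-34 or miR-449 with or without a letter. Of 1686 miRNA probes 27 matched, 21 of miR-34 and 6 of miR-449. Of the miR-34 probes 6 carried B. belcheri sequences (prefix bbe) and 5 those of the related amphioxus B. floridae (bfl). Another 3 were of zebrafish (dre), 2 each of the sea squirt Ciona (cin), the acorn worm Saccoglossus (sko) and the frog Xenopus tropicalis (xtr), and 1 of a sea urchin (spu). All 6 miR-449 probes were of Xenopus tropicalis, and none carried an amphioxus sequence.

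The groups were hepatic caecum (a pouch of the gut, spelled caecom in the labels), intestine and gill, each as 1 array hybridised with RNA pooled from 5 adults. The animals were untreated, collected from the sea and kept on algae, and strain, sex and genotype are not given in the sources used here. With 1 array per organ, array and organ cannot be told apart and no test between organs was possible. In RNA from whole organs, fewer cells of a type and less RNA per cell cannot be told apart. The array carries miRNA probes, so no mRNA marker of ciliated cells was available to check the cell type these miRNAs are named for.

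The density of a spot is its median brightness. A probe was called detected when its 2 spots averaged over 3 SDs above the 304 blank spots of the array, which set thresholds of 618 in hepatic caecum, 220 in intestine and 139 in gill. On the hepatic caecum array the probe names did not match the spots as deposited. Over the 596 control spots its log2 densities had r = 0.261 with the mean of the other arrays as deposited and 0.977 with the grid turned by 180 degrees, and over the 3372 miRNA spots 0.0060 and 0.870. All hepatic caecum values below are from the turned grid unless deposited names are mentioned. Repeat spots correlated on the log2 scale with r = 0.936 in hepatic caecum, 0.974 in intestine and 0.995 in gill over 1686 probes. Of the muscle miRNAs miR-1, miR-133 and miR-206, 0 of 35 probes were detected in hepatic caecum, 4 in intestine and 15 in gill. Of the neural miR-124 and miR-9, 1 of 22 probes was detected in hepatic caecum, 1 in intestine and 8 in gill. For miR-375, known from endocrine cells of the gut in other animals, 1 of 10 probes was detected in hepatic caecum, 7 in intestine and 7 in gill. Over all 1686 miRNA probes 7.18% were detected in hepatic caecum, 11.9% in intestine and 27% in gill. The part of tissue composition in the results below was not tested.

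The sequences on which the results turn fall into 2 sets. They are the target sequences listed for the probes, 5′ to 3′, with bases 2 to 8 in capitals. The first set holds the arms of miR-34b, a 3p and a 5p sequence, with the B. belcheri 5p sequence miR-34g.
bbe-miR-34b-3p: aACAACUAacaucacugccaag
bfl-miR-34b-5p: aGGCAGUGaugucaguuuguugu
bbe-miR-34g-5p: gCAGUGAUguuaguuguugu
The second set holds 5p sequences that differ from miR-34b behind the seed.
bbe-miR-34a-5p: uGGCAGUGuggauagcuggccgu
bfl-miR-34a: uGGCAGUGuggauagcuggccguuu
bbe-miR-34f-5p: uGGCAGUGcgaauagcuggc
sko-miR-34-5p: uGGCAGUGugguuagcugguug
xtr-miR-34a: uGGCAGUGucuuagcugguuguu

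The seed GGCAGUG stood at bases 2 to 8 of 17 of the 27 probes. In 2 more, dre-miR-34b and xtr-miR-34b, the same letters stood 1 base later, and bbe-miR-34g-5p starts inside them. The other 7 were 3p sequences or, in bfl-miR-34c, a sequence with no arm in its name. A minimum-energy duplex joined 18 bases of bfl-miR-34b-5p with bbe-miR-34b-3p, and 18 bases of bbe-miR-34g-5p with the same 3p sequence, all as Watson-Crick pairs. The 5p sequences bbe-miR-34g-5p and bfl-miR-34b-5p are 4 edits apart. The probe bfl-miR-34a holds the whole of bbe-miR-34a-5p and 2 more bases, so both can bind the same miRNA and are not separate measurements. From bbe-miR-34a-5p, sko-miR-34-5p is 4 edits away, bbe-miR-34f-5p 5 and xtr-miR-34a 6.

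Detection came first. In hepatic caecum 4 of 27 miR-34 and miR-449 probes were detected, in intestine 4 and in gill 14, and the 4 of the gut organs were the same probes, bbe-miR-34b-3p, bfl-miR-34b-5p, bbe-miR-34f-5p and bfl-miR-34a. Over all 1686 miRNA probes the shares detected were 7.18% in hepatic caecum, 11.9% in intestine and 27% in gill. The members' shares were 14.8% in hepatic caecum, 14.8% in intestine and 51.9% in gill. Of the 11 Branchiostoma members 9 were detected in gill (81.8%), where 61.9% of the 260 Branchiostoma probes were. Of the 16 members from other species 5 were (31.25%), where 20.6% of 1426 such probes were. In gill alone 10 of the 27 members were detected and 13 were detected nowhere, beside 257 and 1223 of all 1686 probes. Of the 11 Branchiostoma members 5 were detected in gill alone and 2 nowhere, beside 81 and 95 of the 260 Branchiostoma probes.

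**Figure D1:**
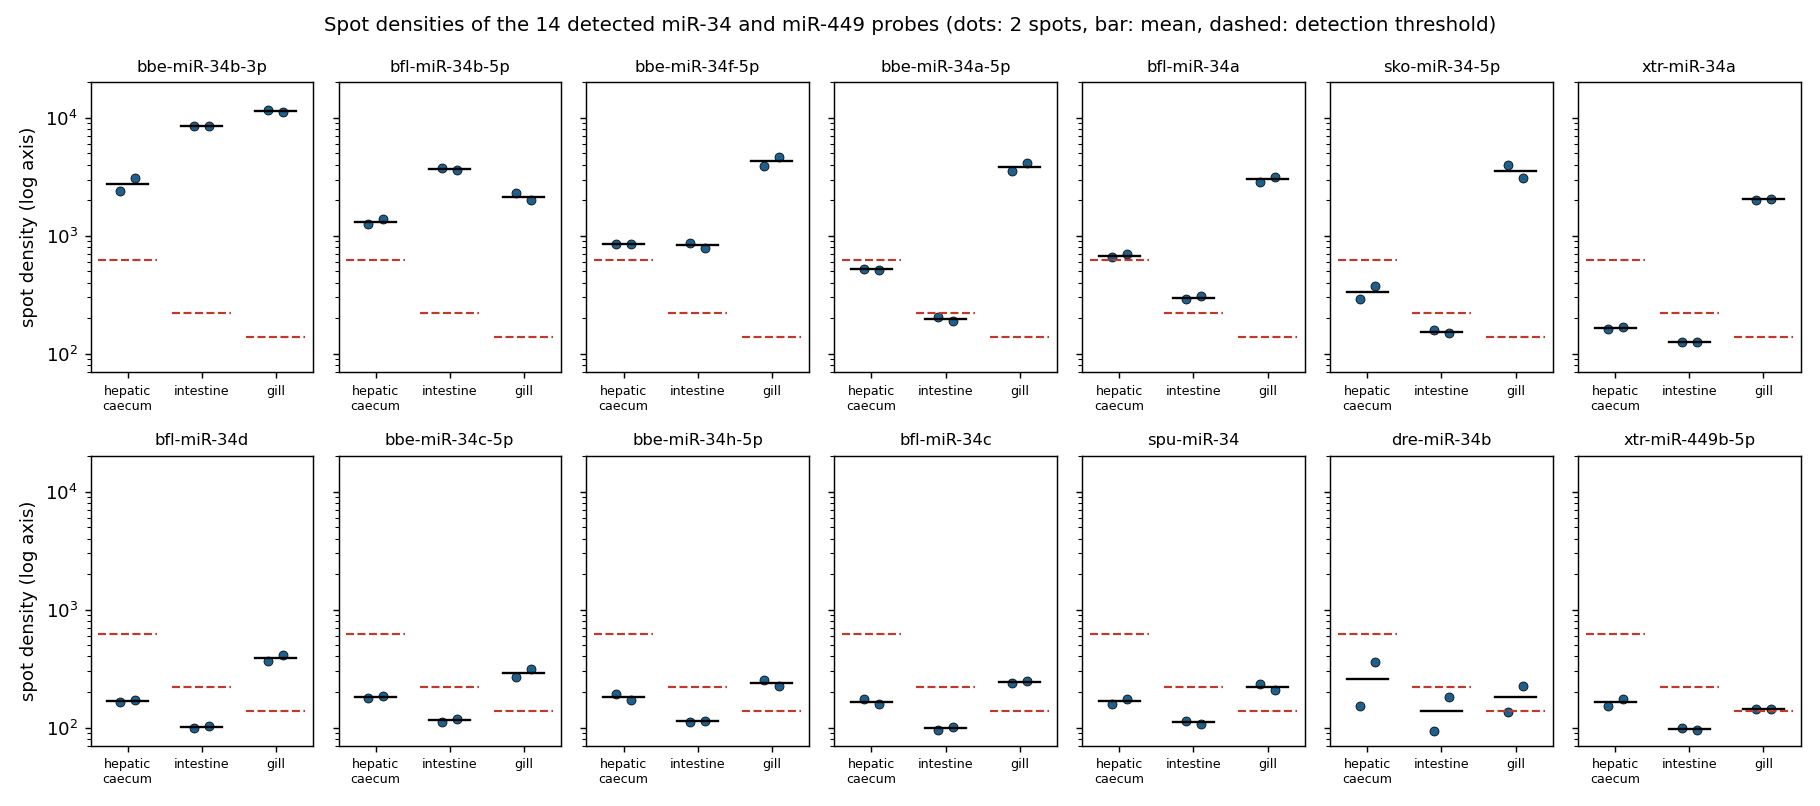
Spot density (log axis) of the 14 detected probes on the hepatic caecum, intestine and gill arrays, with dots for the 2 spots, a bar for their mean and a dashed line for the detection threshold of each array. In gill all 14 means lie above the threshold of 139. The threshold of 618 in hepatic caecum is passed by 4 of them and that of 220 in intestine by the same 4.

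The miR-34b arms were the probes seen well above threshold in all organs. The 3p probe bbe-miR-34b-3p had densities of 2747 ± 462 in hepatic caecum, 8551 ± 71.1 in intestine and 11488 ± 354 in gill (SD of 2 spots on 1 array, here and below). The 5p probe bfl-miR-34b-5p had 1318 ± 88.5 in hepatic caecum, 3654 ± 99.3 in intestine and 2153 ± 227 in gill. For both arms the hepatic caecum was the dimmest array before scaling. Before scaling the arms also differed in which array was brightest, gill for the 3p and intestine for the 5p probe, and in each case the spots of these arrays did not overlap. After the quantile normalization described below, both arms were highest in intestine. The log2 levels were 13.6 in intestine and 11.6 in gill for the 3p probe, and 12.6 and 9.46 for the 5p probe. The B. belcheri 5p probe bbe-miR-34g-5p was not detected anywhere. Its spots gave 176 and 153 in hepatic caecum, 130 and 88.4 in intestine and 153 and 113 in gill, so 1 gill spot passed the threshold and their mean, 133, did not.

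Before scaling between arrays, the miR-34a probes were bright in gill and dim in the gut organs. The probe bbe-miR-34a-5p had 520 ± 5.4 in hepatic caecum, 197 ± 13.3 in intestine and 3828 ± 415 in gill, and the gut values lay below the thresholds there. Its longer form bfl-miR-34a had 680 ± 23.9 in hepatic caecum, 298 ± 11.9 in intestine and 3032 ± 207 in gill, just above both gut thresholds. For both probes the gill spots were the highest and the intestine spots the lowest before scaling, with no overlap between arrays. After the quantile normalization described below, bfl-miR-34a was higher in hepatic caecum than in gill (log2 difference 0.62). The probe bbe-miR-34a-5p, not detected in hepatic caecum, was lower (-0.57).

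Other 5p probes of this kind followed. The B. belcheri probe bbe-miR-34f-5p, with the shared seed, had 846 ± 1.2 in hepatic caecum, 828 ± 58.1 in intestine and 4266 ± 511 in gill, and its hepatic caecum spots lay within the range of its intestine spots. The acorn worm probe sko-miR-34-5p had 334 ± 62.1 in hepatic caecum and 154 ± 7.5 in intestine, both not well above background, and 3515 ± 619 in gill. The frog probe xtr-miR-34a had 165 ± 3.3 in hepatic caecum, 125 ± 0.1 in intestine and 2038 ± 28.6 in gill. Gill was again the only organ in which these probes from other species were detected.

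Further probes were detected in gill at low densities. They were bfl-miR-34d at 388 ± 35.4 in gill, bbe-miR-34c-5p at 290 ± 31.1, bfl-miR-34c at 242 ± 5.2, bbe-miR-34h-5p at 240 ± 21.5 and spu-miR-34 at 219 ± 17.9. On the gut arrays these 5 probes had mean densities between 166 and 182 in hepatic caecum and between 98.7 and 115 in intestine, not well above background. For 4 of them, all but spu-miR-34, the gill density lay above the intestine threshold, and for 0 of them above that of the hepatic caecum. An equal density in hepatic caecum would thus have gone undetected. The zebrafish probe dre-miR-34b was detected in gill only through 1 spot. Its spots were 151 and 360 in hepatic caecum, 93.0 and 181 in intestine and 136 and 224 in gill, so on all 3 arrays the same spot was the brighter one.

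Few bases separated some detected probes from undetected ones. These pairs are shown because their sequences differ at 1 place.
bfl-miR-34d: uGGCAGUGugcgccuacagcuga
bfl-miR-34e: uGGCAGUGcgcgccuacagcuga
dre-miR-34a: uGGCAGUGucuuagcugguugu
The first pair differs by U9C, with positions counted from the 5′ end and the base of bfl-miR-34d first. The probe bfl-miR-34d was detected in gill, whereas bfl-miR-34e, at 161 ± 2.7 in hepatic caecum, 98.4 ± 1.4 in intestine and 120 ± 5.6 in gill, was detected in no organ. The zebrafish probe dre-miR-34a has the first 22 bases of xtr-miR-34a and lacks its last U. It had 169 ± 6.8 in hepatic caecum, 87.5 ± 8.9 in intestine and 127 ± 12.5 in gill, below each threshold, although xtr-miR-34a was detected in gill. Binding strength differs between probes and was not measured, so the densities of these pairs are given side by side with no fold between probes.

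For miR-449 the array held only frog sequences. The probe that passed a threshold is printed with its seed in capitals, as for miR-34.
xtr-miR-449b-5p: aGGCAGUGuaguuuuagcugg
It had 163 ± 15.2 in hepatic caecum, 97.4 ± 3.1 in intestine and 145 ± 0.1 in gill, where the threshold was 139, so the gill call was a narrow one. The other 5 were detected in no organ. Over the 6 probes the densities ran from 160 to 175 in hepatic caecum, from 95.1 to 99.98 in intestine and from 108 to 145 in gill. The nearest Branchiostoma member of xtr-miR-449b-5p is bbe-miR-34c-5p, at 5 edits. Over the 13 members detected nowhere, 5 of miR-449 and 8 of miR-34, densities ran from 156 to 307 in hepatic caecum, from 87.1 to 109 in intestine and from 104 to 133 in gill. The highest hepatic caecum value was that of dre-miR-34c, whose spots gave 157 and 457.

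Probes with the seed were then counted. Outside miR-34 and miR-449, 6 probes have GGCAGUG at bases 2 to 8, namely cin-miR-4008b-5p, cin-miR-4091-5p, odi-miR-1483-5p, odi-miR-1487, odi-miR-1490a and odi-miR-1490b (odi, the tunicate Oikopleura). Of these 0 were detected in any organ, and their gill densities ran from 106 to 128. All 6 are from other species, of whose probes 20.6% were detected in gill. Among the 17 members with the seed at bases 2 to 8, 3 were detected in hepatic caecum, 3 in intestine and 11 in gill (64.7%), beside 3 in gill of the 10 members without it there (30%).

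Differences between organs were taken on the log2 scale after normexp background correction and quantile normalization, which gives the 3 arrays 1 common distribution. Its error combines the log2 spot SDs of both arrays in quadrature, so it leaves out the spread between animals and between arrays. A difference was called at 2-fold or more, a log2 difference of 1, among probes detected in both organs.

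In intestine against gill the 4 shared probes went in both directions. Of the 4, 2 were at least 2-fold higher in intestine and 1 at least 2-fold lower, where 39.6% of the 197 probes detected in both organs were higher, 21.8% lower and 61.4% either, so the members' count is close to the background. The log2 difference was 3.14 ± 0.16 for bfl-miR-34b-5p and 2.06 ± 0.05 for bbe-miR-34b-3p. It was 0.29 ± 0.20 for bbe-miR-34f-5p and -1.04 ± 0.11 for bfl-miR-34a. From the lowest, these differences ranked 182, 165, 90 and 41 among the 197. The members' median was 1.17, beside 0.45 over the 197. The call of bfl-miR-34a ended with cyclic loess (-0.72), without background correction (-0.96) and from the first (-0.79) or second spots (-0.97). Markers of other cells differed in this pair of organs too. After quantile normalization the 4 muscle probes detected in both, of miR-1, all passed 2-fold upwards in intestine (median log2 difference over gill 1.96), and so did 6 of 7 miR-375 probes (median 1.28). Only probes detected in both organs enter these counts. Of all 35 muscle probes 4 were detected in intestine and 15 in gill, with 0 and 7 of 17 for miR-133. The single miR-206 probe was detected in gill and not in intestine. The 4 probes of miR-1 thus do not stand for the muscle list. The part of these markers in the miR-34 differences was not tested.

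The direction of single probes depended in part on the scaling between arrays, and 7 scalings were compared. The probe bfl-miR-34b-5p was higher in intestine than in gill under all 7, with log2 differences from 0.78 to 3.21, and bfl-miR-34a was lower under all 7, from -3.44 to -0.72. The probe bbe-miR-34b-3p was higher under 4 and lower under 3, and bbe-miR-34f-5p higher under 3 and lower under 4. A shift of a whole array cancels when 2 probes of the same pair of organs are compared, a comparison added after the data had been seen. The difference of bfl-miR-34a minus that of bbe-miR-34b-3p was -3.10 ± 0.12, and between -3.39 and -2.19 under 10 other settings of scaling, background and spots. Minus the same probe, bbe-miR-34f-5p had -1.77 ± 0.21, between -1.97 and -1.30 in those settings, and bfl-miR-34b-5p 1.08 ± 0.16, between 1.01 and 1.70. Both miR-34b arms lay above the miR-34f probe, and that above the miR-34a probe, in each of these settings.

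Probes detected in gill and not in intestine have only a bound, taken against the higher of their own intestine level and the lowest level of any probe detected there. The intestine level was at least 3.85-fold lower for bbe-miR-34a-5p, at least 3.65-fold lower for sko-miR-34-5p and at least 2.33-fold lower for xtr-miR-34a. Of the 258 probes with such a bound, 8.91% reached 2-fold, and these are 3 of the 10 members among them. Over 10 other settings, chosen after the data had been seen, the bound ran from 3.26 to 21.0 for bbe-miR-34a-5p, from 3.08 to 19.2 for sko-miR-34-5p and from 2.02 to 15.9 for xtr-miR-34a. For the other 7 members no bound above 1 could be given after quantile normalization with both spots and normexp. Each of them had one in at least 1 of the other settings, up to 2.19 for bfl-miR-34d from the first spots. By definition such a bound can only point to a lower level in intestine, so the direction of these 3 probes is no result.

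**Figure D2:**
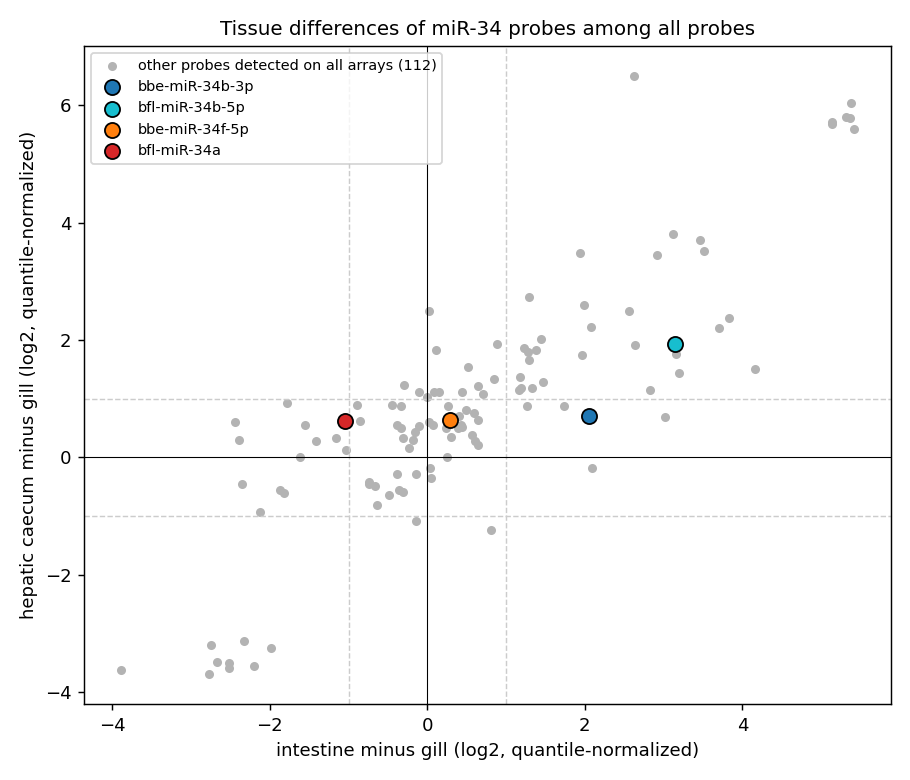
Log2 difference of hepatic caecum from gill (vertical) against that of intestine from gill (horizontal) after quantile normalization, for the 4 miR-34 probes and the 112 other probes detected on all arrays, with dashed lines at 2-fold. The miR-34 probes spread along the horizontal axis, from -1.04 for bfl-miR-34a to 3.14 for bfl-miR-34b-5p.

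In hepatic caecum against gill 1 of 4 probes was at least 2-fold higher and 0 lower, where 41% of 117 probes were higher, 9.4% lower and 50.4% either. The called probe was bfl-miR-34b-5p, with a log2 difference of 1.93 ± 0.18. The others lay close together, at 0.71 ± 0.25 for bbe-miR-34b-3p, 0.64 ± 0.17 for bbe-miR-34f-5p and 0.62 ± 0.11 for bfl-miR-34a, which differ by less than their errors. The members' median was 0.67 and that of the 117 probes 0.70. Signs depended on the scaling here. The probe bfl-miR-34b-5p was higher in hepatic caecum than in gill under 3 of 7 scalings and lower under 4, from -1.30 to 1.93, and the other 3 probes were lower under 5 or 6 of the 7. Relative to bbe-miR-34b-3p, bfl-miR-34b-5p lay 1.22 ± 0.31 higher, from 1.09 to 1.66 in the 10 other settings, of which those that only shift whole arrays are again equal by construction. The distances of bbe-miR-34f-5p, -0.067 ± 0.30, and of bfl-miR-34a, -0.088 ± 0.27, changed sign among these settings.

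Among the 10 members that gill showed and hepatic caecum did not, the level in hepatic caecum was at least 1.44-fold lower for bbe-miR-34a-5p and at least 1.36-fold lower for sko-miR-34-5p. Of them 0 reached 2-fold in this setting, and of all 338 probes with such a bound 8.58% did. Over the 10 other settings the bound ran from 1.19 to 12.2 for bbe-miR-34a-5p and from 1.12 to 11.1 for sko-miR-34-5p. Both passed 2-fold without normalization and with 5S rRNA, spike-ins or the 75th percentile. For xtr-miR-34a, at 165 in hepatic caecum and 2038 in gill, no bound above 1 could be given with quantile normalization, normexp and both spots, where the lowest detected level in hepatic caecum was higher than its gill level. Among the other settings it had bounds of 4.48 without normalization, 4.35 with the mean of the blanks subtracted, 8.51 from the first spots and 2.74 from the second, and 0.74 without background correction.

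In hepatic caecum against intestine the 4 probes again went both ways. Of these, 1 was at least 2-fold higher and 2 lower, where 24.1% of 116 probes were higher, 12.1% lower and 36.2% either. The log2 difference was 1.66 ± 0.08 for bfl-miR-34a, at rank 106 of 116 from the lowest. It was -1.35 ± 0.24 for bbe-miR-34b-3p and -1.21 ± 0.10 for bfl-miR-34b-5p, at ranks 11 and 13 from the lowest. For bbe-miR-34f-5p it was 0.35 ± 0.10. The members' median was -0.43, beside 0.32 over the 116. The 2-fold call of bfl-miR-34a ended with 5S rRNA (0.12), spike-ins (0.85), cyclic loess (0.96) and shared probes (0.98).

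These directions held under all 7 scalings for 3 of the 4 probes. Hepatic caecum exceeded intestine for bfl-miR-34a by log2 differences from 0.12, with 5S rRNA, to 1.66. It was below intestine for bbe-miR-34b-3p, from -2.69 to -1.35, and for bfl-miR-34b-5p, from -2.55 to -1.21. The probe bbe-miR-34f-5p was higher under 1 scaling and lower under 6. The difference of bfl-miR-34a lay 3.01 ± 0.26 above that of bbe-miR-34b-3p and that of bfl-miR-34b-5p 0.13 ± 0.27 from it, so the miR-34b arms could not be told apart in this pair of organs. The probe bbe-miR-34a-5p, below both thresholds, had both hepatic caecum spots, 524 and 516, above both intestine spots, 207 and 188. The hepatic caecum background was higher too, with a mean of the blank spots of 185 ± 144 beside 115 ± 34.9 in intestine.

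**Figure D3:**
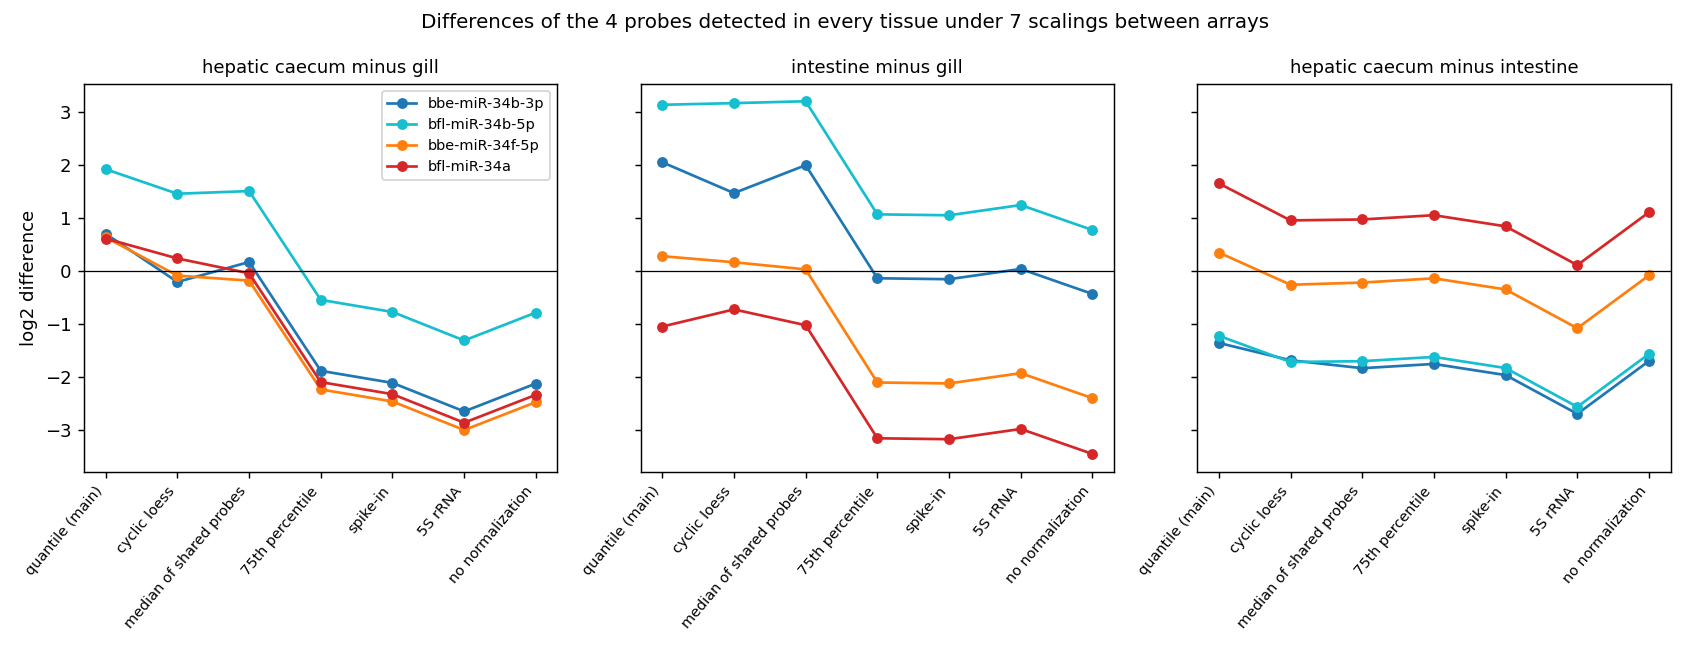
Log2 differences of the 4 probes detected in every organ under 7 scalings between arrays, for hepatic caecum minus gill, intestine minus gill and hepatic caecum minus intestine. In intestine minus gill bfl-miR-34b-5p is on top and bfl-miR-34a at the bottom, while the common level moves by more than 2 log2 units between scalings. Apart from quantile normalization and cyclic loess, the scalings differ only by a shift of whole arrays, which cannot change the order of the probes. In intestine minus gill the order is the same with quantile normalization, with cyclic loess and with the shifts. In hepatic caecum minus gill and in hepatic caecum minus intestine the order of some probes changed between them.

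Across the 112 other probes detected on all arrays, likeness to the members' median pattern was measured as the distance between the pairs of log2 differences from gill (hepatic caecum 0.67, intestine 1.17). The nearest miRNAs by number were miR-29 (bfl-miR-29a-5p, distance 0.22), miR-33 (bbe-miR-33-2-3p, 0.48), miR-71 (sko-miR-71, 0.50), miR-2061 (bfl-miR-2061, 0.53) and miR-98 (xtr-miR-98, 0.53). This pattern rests on 3 arrays and on a median between probes that differ, so it describes none of the 4 well.

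Related miRNAs were counted for comparison. Of the epithelial miRNAs miR-200, miR-141, miR-429, miR-203 and miR-205, 11 of 34 probes were detected in hepatic caecum, 12 in intestine and 17 in gill. Over all miRNA probes the shares were 7.18%, 11.9% and 27%. Of 12 detected in intestine and gill, 0 were at least 2-fold higher in intestine and 4 lower, with a median log2 difference of -0.40. Of all 197 probes detected in both, 39.6% were higher and 21.8% lower, with a median of 0.45. Of 11 detected in both gut organs, 9 reached 2-fold in favour of hepatic caecum over intestine, with a median of 1.21, where 24.1% of all probes did. Of miRNAs linked to p53 in mammals besides miR-34 (miR-192, miR-194, miR-215, miR-143 and miR-145), 0 of 17 probes were detected in any organ. Over all miRNA probes 1223 of 1686 were detected in none either, so this count is not read as a result about these miRNAs.

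Under the probe names as deposited, the hepatic caecum array gave other members. The spots named bbe-miR-34h-5p then had densities of 10405 and 11582, and those named bbe-miR-34c-5p 3565 and 9198. In the turned grid the same spots belong to bfl-miR-31-5p and bfl-miR-2070-5p, and bbe-miR-34h-5p had 192 and 172 there. The authors' deposited series table follows the deposited names. It gives 43834 for bbe-miR-34h-5p in hepatic caecum, rank 13 of 1686, and 18573 for bbe-miR-34c-5p, rank 27, beside 99.9 for bbe-miR-34b-3p. Its medians are 5.41 for hepatic caecum, 5.33 for intestine and 6.88 for gill, and its scale and centring are not known. For intestine and gill, where names and spots match, it gives bfl-miR-34b-5p 8270 in intestine and 825 in gill, and bfl-miR-34a 478 in intestine and 1094 in gill.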

How the data were processed

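Small RNA of 3 organs, below 300 nt per the labels' protocols, was measured on 1 single-colour (Cy3) array each. Each scanner file as deposited lists, per the file headers, a median density for 3968 spots, which is a linear intensity. The deposited series table holds intensity values processed by the authors in a way not given in the sources used here. No value column was left unmapped (0 columns). Scanner intensities were corrected with normexp (offset 50, control spots included) and put on the log2 scale, the 2 spots of a probe averaged and the arrays brought to common quantiles (limma 3.58.1, R 4.3.3). This was tested on arrays simulated from the gill values with a common background. The real arrays differ in background and level, so that test does not cover the scaling between them. The grid was compared in 4 orientations on control and miRNA spots. Control spots hardly separated the turned grid (r = 0.977) from mirrored rows (0.970), whereas miRNA spots did (0.870 and -0.0092). Saturated spots numbered 2 in gill, and 0 belonged to members. Edit distances and counts came from Python 3.11.15 and duplexes from RNAduplex (ViennaRNA 2.7.2).

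Members and lists were chosen with earlier results of these data known. All members are reported, with values for each detected or Branchiostoma member the results turn on and ranges for the rest. With 1 array per organ there was no test between organs, and the number of arrays limits the precision. Alternatives changed the detection threshold, the spots, the background correction, the scaling, the placement of the hepatic caecum grid, or used the series table. Sequences are those listed in the scanner files.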

Additional observations from a re-analysis of the deposited data

How the results depend on the processing

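No paired analysis was possible because each organ has 1 array. Counts of detected members kept within 1.5 times of those given, except in hepatic caecum, where 8 were detected with a threshold based on the blank spots' median and 0 under the deposited names, so that no median with hepatic caecum could be given there. The median log2 difference in intestine against gill, 1.17, became -1.41 without normalization, -0.94 with 5S rRNA, -1.13 with spike-ins, -1.11 with the 75th percentile, -0.38 with the median-based threshold and -0.16 over all members. It was 1.02 with the median of shared probes, 0.82 with cyclic loess, 0.99 from the second spots and 0.62 in the series table. In hepatic caecum against gill the median, 0.67, became -2.22 without normalization, -2.75 with 5S rRNA, -2.21 with spike-ins, -1.98 with the 75th percentile, 0.070 with shared probes, 0.082 with cyclic loess, -0.15 over all members and -6.18 in the series table. In hepatic caecum against intestine the median, -0.43, became -0.82, -1.81, -1.08, -0.87, -0.95 and -0.96 under these 6 scalings in the same order, 0.81 with the median-based threshold, 0.083 over all members and -6.30 in the series table.

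Calls of at least 2-fold in hepatic caecum against gill, 1, became 3 without normalization, with spike-ins and with the 75th percentile, 4 with 5S rRNA and in the series table, 2 with the median-based threshold, 5 over all members and 0 under the deposited names. The 1 call was a higher level in hepatic caecum. All calls without normalization, with spike-ins, 5S rRNA or the 75th percentile, and in the series table, were lower levels there. In intestine against gill, 3 became 5 with the median-based threshold and 7 over all members, and 2 without normalization, with cyclic loess, without background correction and from either spot alone. Without normalization these 2 calls, bbe-miR-34f-5p (-2.39) and bfl-miR-34a (-3.44), were lower in intestine. In the other settings with 2 calls they were the miR-34b arms, higher in intestine. With 5S rRNA, spike-ins or the 75th percentile 3 calls stood, bfl-miR-34b-5p higher and bbe-miR-34f-5p and bfl-miR-34a lower. The count of 3 for hepatic caecum against intestine became 5 with the median-based threshold, 6 over all members, 4 in the series table, 2 with spike-ins, shared probes and cyclic loess, and 0 under the deposited names. With 5S rRNA the 3 calls were bbe-miR-34b-3p, bfl-miR-34b-5p and bbe-miR-34f-5p, all lower in hepatic caecum. The probe bfl-miR-34b-5p turned in hepatic caecum against gill, to -0.78 without normalization, -1.30 with 5S rRNA, -0.77 with spike-ins, -0.54 with the 75th percentile and -7.07 in the series table. Probes that were below 2-fold after quantile normalization turned there as well. Without normalization bbe-miR-34b-3p had -2.11, bbe-miR-34f-5p -2.47 and bfl-miR-34a -2.33. The probe bbe-miR-34b-3p turned in intestine against gill, to -0.43, -0.15 and -0.13 without normalization, with spike-ins and with the 75th percentile. In the same settings bbe-miR-34f-5p turned too, to -2.39, -2.11 and -2.10. In hepatic caecum against intestine, bfl-miR-34a turned to -5.62 in the series table, which follows the deposited names. The thresholds from all blank spots and the medians of few probes limit these values, and the cause of the other changes was not tested.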

Other observations

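With a threshold based on the blank spots' median, bbe-miR-34a-5p and sko-miR-34-5p were also detected in both gut organs. Their log2 differences in hepatic caecum against intestine were then 1.44 ± 0.10 and 1.26 ± 0.28, and in intestine against gill -2.01 ± 0.18 and -2.60 ± 0.26. Both have the direction of bfl-miR-34a in each of these pairs, and both resemble it in sequence. As bbe-miR-34a-5p and bfl-miR-34a can bind the same miRNA, their shared direction is not a separate measurement. Whether sko-miR-34-5p, 4 edits from bbe-miR-34a-5p, also reads that miRNA was not tested. In hepatic caecum against gill bbe-miR-34a-5p had -0.57 ± 0.16, where bfl-miR-34a, which shares its first 23 bases, had 0.62 ± 0.11, so near-identical probes differed in sign there after quantile normalization. Before scaling both were lower in hepatic caecum, at 520 and 680, against 3828 and 3032 in gill.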
